A study of Homo sapiens with 6 samples.

Results

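The genes described here make and limit the building blocks of DNA: TK1, TYMS, DUT, DTYMK, DCK, RRM1, RRM2, RRM2B and SAMHD1. They were picked by symbol for their roles, with earlier results of these data known, and all 9 were found as 1 row each among the 23555 gene rows of the deposited table. Each passed the filter on low values and was tested. The libraries came from IMR-32, an established human neuroblastoma line with amplified MYCN and a genotype labelled WT. The treated group received PTC-028 at 25 nM for 24 h, and the control group received the solvent DMSO for 24 h, with 3 libraries each. The study used PTC-028 as an inhibitor of the Polycomb protein BMI1, and its title names activation of p53. The series holds 1 line, 1 dose and 1 time, and the labels do not say whether replicates were separate cultures, so the spread behind the p-values is that among these libraries and may be technical.

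DNA synthesis needs the deoxyribonucleoside triphosphates in balance. Ribonucleotide reductase, built from the large subunit RRM1 and a small subunit, turns ribonucleotides into deoxyribonucleotides. RRM2 is the small subunit of dividing cells, made for S phase, whereas RRM2B (p53R2) is a small subunit that p53 can induce and that supplies deoxynucleotides for repair and for mitochondrial DNA. Thymidylate is made from dUMP by thymidylate synthase (TYMS), with dUMP supplied by the dUTPase DUT, or recovered from thymidine by thymidine kinase 1 (TK1). The kinase DTYMK passes both streams on to dTDP. DCK recovers deoxycytidine and purine deoxynucleosides, and SAMHD1 works in the opposite direction by cleaving deoxyribonucleoside triphosphates.

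Promoter sequences are shown for 4 of the genes that fell, because S-phase genes are known to be driven through E2F sites and CCAAT boxes. Each run is the 150 bases before a RefSeq transcript start (GRCh38.p14), 5′ to 3′ on the strand of the gene. For TYMS it is chr18:657503-657652 on the plus strand, for DUT chr15:48332047-48332196 on the plus strand, for TK1 chr17:78187053-78187202 on the minus strand and for RRM2 chr2:10122589-10122738 on the plus strand. Capitals mark TTTCCCGC or TTTGGCGC, forms of the E2F consensus, and CCAAT, each on either strand.
TYMS: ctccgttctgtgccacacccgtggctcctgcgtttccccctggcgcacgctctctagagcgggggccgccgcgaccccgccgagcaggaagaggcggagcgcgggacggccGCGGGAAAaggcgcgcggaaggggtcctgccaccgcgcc
DUT: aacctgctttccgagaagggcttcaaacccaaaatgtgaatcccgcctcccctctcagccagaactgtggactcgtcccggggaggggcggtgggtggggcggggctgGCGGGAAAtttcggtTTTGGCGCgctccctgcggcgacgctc
TK1: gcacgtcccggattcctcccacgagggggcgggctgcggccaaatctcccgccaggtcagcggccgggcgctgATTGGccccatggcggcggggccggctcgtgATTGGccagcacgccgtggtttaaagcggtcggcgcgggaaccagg
RRM2: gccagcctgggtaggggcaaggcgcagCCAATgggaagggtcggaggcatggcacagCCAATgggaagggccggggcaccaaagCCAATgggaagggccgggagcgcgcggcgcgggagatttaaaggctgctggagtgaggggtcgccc

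These runs show 1 E2F form for TYMS and 2 for DUT, which do not overlap each other, and none for TK1 and RRM2. They show 2 CCAAT boxes for TK1 and 3 for RRM2. Other forms of the E2F consensus were not searched, so TK1 and RRM2 are not shown to lack E2F sites. RefSeq windows of 300 bases, from 250 before to 50 after a start, were at hand for 8 of the 9 genes. An E2F form was found in the windows of 3 of the 8 (TYMS, DUT and DCK), against 2.27% of 35116 windows of all genes. CCAAT was found for 5 of the 8 (TK1, DTYMK, RRM1, RRM2 and SAMHD1), against 34.6% of all windows. The 8 genes had 13 windows, and a gene with several starts had several chances in this count. Counts per gene and shares per window are thus not like for like. For TK1, DUT and RRM2, which have 2, 4 and 2 windows, the window with the most matches is shown. Letter matches describe these windows and do not show binding.

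Levels are in TPM, a length-corrected unit in which every library has the same sum. The libraries held between 13580 and 14003 genes at 1 TPM or more. All 12 neuroblastoma markers looked for reached 1 TPM, with a summed level of 3186 to 3252 TPM in PTC-028 and 2896 to 3022 TPM in DMSO. One of them, the transcription factor gene GATA3, rose by 0.35 on the log2 scale (limma adjusted p = 0.0211). GATA3 did not pass when DMSO replicate 1 or any 1 of the PTC-028 libraries was left out (up to 0.0887). Its call was also lost with no filter on low values (0.0522) and with eBayes without a trend (0.097). The same held with the replicate number as a block (0.115) and after correction for GC content and transcript length (0.0527). Of 14 markers of other cell types in the table, 6 reached 1 TPM in any library and none was at 0 in all libraries. They summed to 25.3 to 28.5 TPM in PTC-028 and 20.8 to 27.0 TPM in DMSO, mostly COL1A1, whose log2 fold change was 0.02 (limma adjusted p = 0.955), and PTPRC, at 0.18 (0.665). The part of either set of markers in the results below was not tested. Within groups, library correlations over the tested genes were 0.983 to 0.988, which overlaps the 0.981 to 0.985 between groups. DMSO replicate 3 stood farthest out on the first principal component, and its part in the member values is given beside them.

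On GRCh38, with coordinates from GENCODE 29, TK1 lies on chromosome 17 (78174075 to 78187233), TYMS on chromosome 18 (657604 to 673578) and DUT on chromosome 15 (48331011 to 48343373). DTYMK and RRM2 both lie on chromosome 2, at 241675742 to 241686991 and at 10120698 to 10131419. DCK is on chromosome 4 (70992538 to 71030914) and RRM1 on chromosome 11 (4094707 to 4138876). RRM2B is on chromosome 8 (102204502 to 102239118) and SAMHD1 on chromosome 20 (36889773 to 36951901). TK1, DTYMK and RRM2B overlap no other annotated gene. TYMS overlaps the oppositely oriented gene ENOSF1, which stood at 19.8 to 23.1 TPM in the PTC-028 libraries and 21.1 to 26.5 TPM in the DMSO libraries. RRM2 overlaps AC007240.1 on the same strand (3.01 to 3.77 TPM in PTC-028 and 3.62 to 4.17 TPM in DMSO), and DCK overlaps MOB1B on the same strand (11.8 to 12.5 TPM in PTC-028 and 9.62 to 12.8 TPM in DMSO). Whether the counting used strand is not given in the sources used here, so reads of these overlapping genes may not be separated. Pseudogene rows named after DUT summed to at most 2.44 TPM in any library, those of RRM2 to at most 0.49 TPM and that of TYMS to at most 0.328 TPM.

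Here TK1, TYMS, DUT, DTYMK, DCK, RRM1 and RRM2 are grouped as S-phase enzymes, a name not tested for each gene. In PTC-028, 4 of these 7 fell: TK1, TYMS, DUT and RRM2. The other 3, DTYMK, DCK and RRM1, had lower means but did not pass. RRM2B was the 1 gene of the 9 with every PTC-028 library above every DMSO library, yet it did not pass either, and SAMHD1 overlapped between the groups. The threshold was a limma adjusted p of 0.05, from a fit to log2(TPM + 1) over 13836 genes. Of all genes tested 1.01% passed as lower and 0.867% as higher. The S-phase enzymes had a median log2 fold change of -0.44, between -0.70 and -0.25, beside a median of 0.03 over all genes tested. All 7 had no overlap between the groups in the lower direction, which holds for 10.6% of all genes tested. In RNA from whole cultures, fewer cells in S phase and less mRNA in each such cell cannot be told apart.

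**Figure D1:**
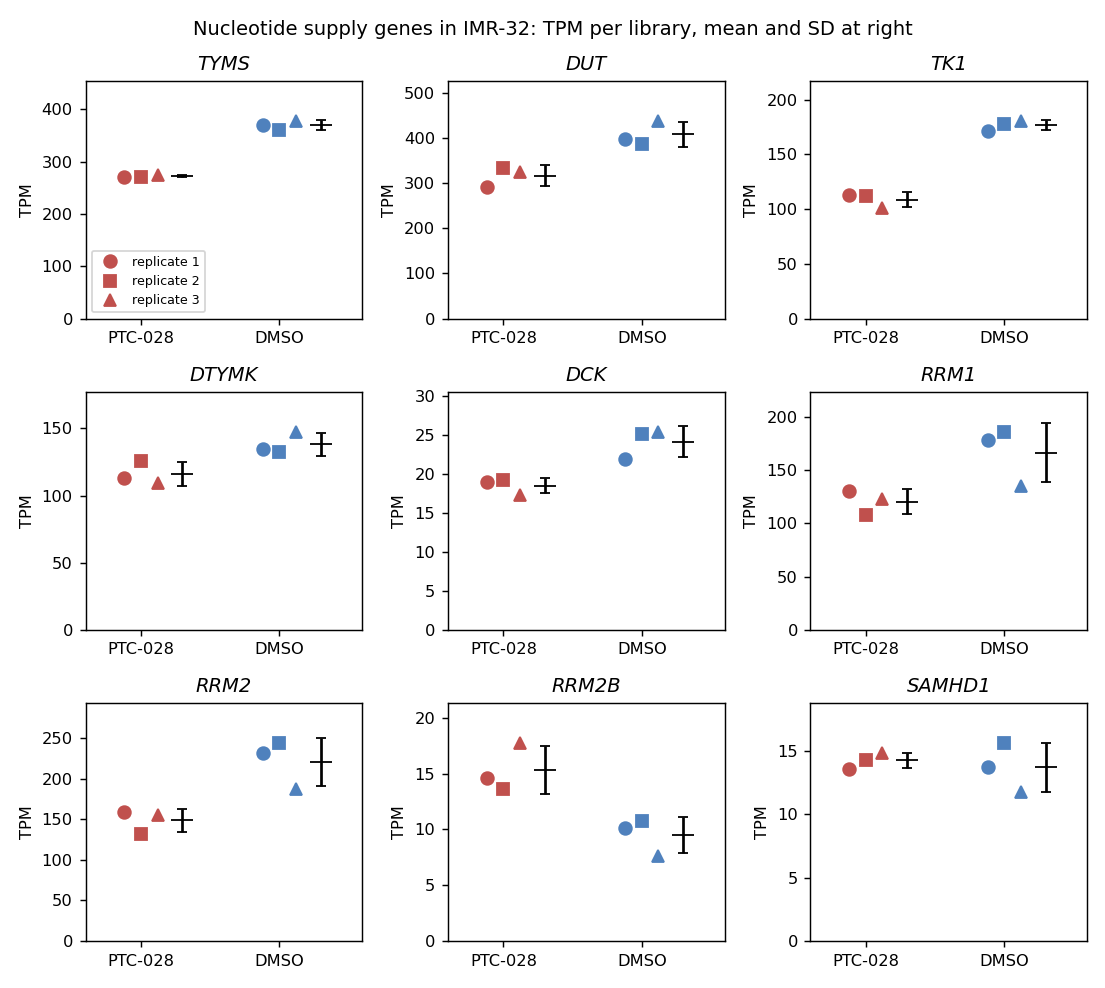
TPM of the 9 genes (vertical axes from 0, different scales) in each PTC-028 library (red) and DMSO library (blue), with the mean and SD in black and symbols for the replicate number. The 7 S-phase enzymes lie lower in every PTC-028 library, RRM2B lies higher (13.6 to 17.7 against 7.64 to 10.8 TPM) and SAMHD1 overlaps.

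Thymidylate synthesis. TYMS had 271, 271 and 275 TPM in PTC-028 replicates 1 to 3, against 370.2, 359.7 and 378 TPM in DMSO replicates 1 to 3. The groups were far apart for their spread, with a coefficient of variation of 0.894% in PTC-028 and 2.53% in DMSO. TYMS fell to 73.8% of its DMSO mean, with a limma log2 fold change of -0.44, SE 0.04, and an adjusted p of 0.00287. DUT, which removes dUTP and yields the dUMP that TYMS methylates, was the most abundant of the 9 genes. It had 291, 334 and 326 TPM in PTC-028 and 398, 387 and 438 TPM in DMSO. DUT fell by 0.36 (limma log2 fold change, SE 0.07, adjusted p = 0.0432), with PTC-028 replicate 1 lowest and DMSO replicate 3 highest. That call was lost without any 1 of the 6 libraries, with an adjusted p of up to 0.133, with quantile normalisation (0.0616), with median ratio scaling (0.057) and after correction for GC content and transcript length (0.0542). It was also lost with no filter on low values (0.123) and with eBayes without a trend (0.144).

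TK1, the salvage kinase whose mRNA peaks around S phase, had 113, 112 and 101 TPM in PTC-028, against 171, 178 and 181 TPM in DMSO. It fell the most of the 9 genes, to 61.5% of its DMSO mean, with a limma log2 fold change of -0.70, SE 0.06, and an adjusted p of 0.00223. Its p-value ranked 15 among the 13836 genes and that of TYMS ranked 23. TK1 and TYMS were the 2 members that passed in all 17 alternative fits, each single-library removal included, with adjusted p of up to 0.0285 for TK1 and 0.0453 for TYMS. DTYMK, the kinase that follows both routes to thymidylate, had 113, 126 and 109 TPM in PTC-028 and 134, 132 and 148 TPM in DMSO. The gap between the groups was narrow, from 126 TPM in PTC-028 replicate 2 to 132 TPM in DMSO replicate 2. Its log2 fold change of -0.25 ± 0.07 (SE, n = 3 each) did not pass (limma adjusted p = 0.138), and the 95% interval ran from -0.41 to -0.09. DCK, the deoxycytidine kinase, was far less abundant, with 18.9, 19.2 and 17.4 TPM in PTC-028 and 21.9, 25.1 and 25.4 TPM in DMSO. At -0.37 ± 0.09 it had nearly the same estimate as DUT and did not pass (SE, n = 3 each; limma adjusted p = 0.0958).

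Ribonucleotide reductase. RRM2 had 159, 132 and 155 TPM in PTC-028 and 231, 244 and 188 TPM in DMSO. All PTC-028 libraries were below all DMSO libraries, and DMSO replicate 3 lay between the other DMSO libraries and the treated ones. RRM2 fell to 67.2% of its DMSO mean, with a limma log2 fold change of -0.57, SE 0.11, and an adjusted p of 0.0479. The call held without DMSO replicate 3 (-0.68, adjusted p = 0.0152) and was lost without any other library (up to 0.168), after quantile normalisation (0.0616) and with a pseudocount of 0.1 (0.0505). Having no filter on low values (0.14) or eBayes without a trend (0.128) also ended it. RRM1, the large subunit that holds the catalytic site, had 130.3, 108 and 123 TPM in PTC-028 and 178, 186 and 135 TPM in DMSO. PTC-028 replicate 1 and DMSO replicate 3 came close to each other, and RRM1, at -0.45 with an SE of 0.12, missed the threshold (limma adjusted p = 0.131). Without DMSO replicate 3 it was -0.60 and passed (limma adjusted p = 0.0207).

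RRM2B, the small subunit known as a p53 target, had 14.6, 13.6 and 17.7 TPM in PTC-028 and 10.1, 10.8 and 7.64 TPM in DMSO. The groups did not overlap, as was the case in the higher direction for 13.4% of all genes tested. Its mean in PTC-028 was 1.62 times that in DMSO, and the log2 fold change of 0.64 ± 0.15 (SE, n = 3 each; 95% interval 0.30 to 0.98) missed the threshold (limma adjusted p = 0.0847). It passed in none of the 17 alternative fits (adjusted p between 0.053 and 0.238), and without DMSO replicate 3, its lowest library, it was 0.51. The 4 other p53 targets looked at were chosen with earlier results of these data known. All passed as higher in the same libraries, beside 0.867% of all genes tested, and do not stand for p53 targets in general. CDKN1A, the gene of the cyclin-dependent kinase inhibitor p21, had 286, 315 and 279.7 TPM in PTC-028 and 78.95, 77.2 and 79.8 TPM in DMSO, up by 1.89 (limma log2 fold change, SE 0.06, adjusted p = 1.4e-05). The gene of the apoptosis inducer PUMA, BBC3, rose by 1.51, PHLDA3, an inhibitor of AKT signalling, by 1.11 and MDM2, the ubiquitin ligase for p53, by 0.71 (limma adjusted p = 0.000961, 0.000834 and 0.0432). MDM2 kept its call without DMSO replicate 2 or 3 and lost it without any other library (adjusted p up to 0.141). That call was also lost with no filter on low values (limma adjusted p = 0.133), with eBayes without a trend and with the replicate number as a block.

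SAMHD1, the dNTP-cleaving enzyme, had 13.6, 14.3 and 14.9 TPM in PTC-028 and 13.8, 15.6 and 11.8 TPM in DMSO. The DMSO libraries spanned the whole range of the treated ones. Its log2 fold change was 0.06 ± 0.11 (SE, n = 3 each; limma adjusted p = 0.828), with a 95% interval from -0.20 to 0.32, which leaves room for a modest change either way. The sign turned to -0.04 without DMSO replicate 3 and to -0.01 after quantile normalisation.

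**Figure D2:**
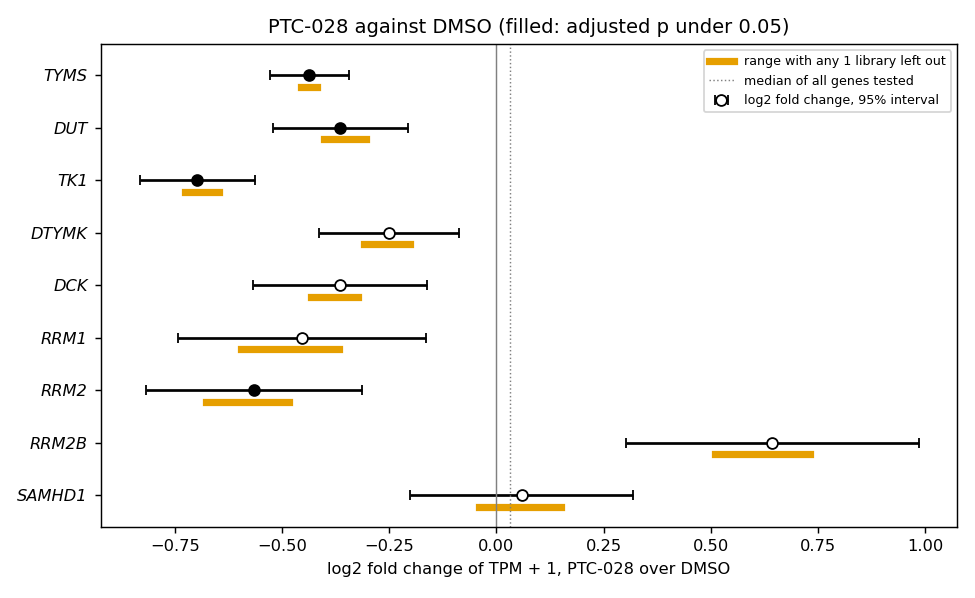
Log2 fold change of TPM + 1, PTC-028 over DMSO, for each gene, with the 95% interval (black) and the range with any 1 library left out (orange). Filled points passed at an adjusted p under 0.05. TYMS and TK1 have the narrowest intervals, and the range of SAMHD1 crosses 0.

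DMSO replicate 3 was the lowest DMSO library for 4 of the 9 genes and for 44.8% of all genes tested, so that share is no trait of the members. RRM1, RRM2, RRM2B and SAMHD1 were lowest in it among the DMSO libraries, at 73.3% to 80.04% of the mean of the other two. The other 5 genes, TK1, TYMS, DUT, DTYMK and DCK, were highest in it, at 104% to 112%. Over all genes tested, DMSO replicate 3 had a median of 96.3% of the other DMSO libraries, with 73.5% at the 10th percentile and 121% at the 90th. RRM2B, at 73.3%, lay just under that 10th percentile, and the other 8 genes lay between the percentiles. A correction for GC content and transcript length left RRM2 at -0.58 and RRM2B at 0.64, and 3 members passed as lower, DUT no longer among them. It took the median over all annotated transcripts of a gene, 603 bases for RRM2B and 644 bases for RRM2. Those need not be the transcripts present here, so a part of length in these values was not tested by it. In sum over the 7 S-phase enzymes, the libraries of each group lay close together, at 1096, 1102 and 1107 TPM in PTC-028 and 1505, 1512 and 1493 TPM in DMSO. In DMSO replicate 3, low RRM1 and RRM2 were offset in this sum by high values of the other 5 enzymes. Single genes spread more, with a coefficient of variation in DMSO of 16.5% for RRM1 and 13.4% for RRM2.

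Balance between the enzymes. Ratios of TPM within a library do not depend on how libraries are scaled, and 5 were compared with a 2-sided exact permutation test over the libraries. With 3 against 3 libraries that test cannot give a p below 0.1, and each of the 5 reached exactly 0.1 (also 0.1 after adjustment over the 5), so none can pass a threshold of 0.05. RRM2 and TK1 each enter more than 1 ratio, so the 5 are not separate results. How often ratios of other gene pairs separate the groups was not computed. RRM2B to RRM2 was 0.0921, 0.103 and 0.115 in PTC-028 and 0.0436, 0.0442 and 0.0407 in DMSO. Every treated library stood well above every DMSO library, a log2 difference of 1.27 with an SE of 0.10 (n = 3 each; exact p = 0.1). With any 1 library left out it stayed between 1.19 and 1.35. In DMSO replicate 3 RRM2 and RRM2B were low together, and the ratio there was close to that of the other DMSO libraries. Put as a share of the small-subunit mRNA, RRM2B made up 8.44%, 9.37% and 10.3% of RRM2 plus RRM2B in PTC-028 and 4.18%, 4.23% and 3.91% in DMSO. RRM2 thus remained the main small-subunit mRNA in all 6 libraries.

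The ratio of the subunits of the S-phase enzyme was slightly lower in PTC-028, without overlap between the groups. RRM2 to RRM1 was 1.22, 1.22 and 1.253 in PTC-028 and 1.297, 1.31 and 1.39 in DMSO, a log2 difference of -0.11 with an SE of 0.03 (n = 3 each; exact p = 0.1). With RRM2B counted in, small subunits stood at 1.33, 1.35 and 1.397 times RRM1 in PTC-028 and 1.35, 1.37 and 1.44 times in DMSO, so the groups overlapped. SAMHD1 to RRM2 averaged 0.0967 ± 0.0113 in PTC-028 and 0.0621 ± 0.00237 in DMSO (SD, n = 3 each; exact p = 0.1), without overlap. The difference of 0.63 on the log2 scale came with RRM2 lower and SAMHD1 near its DMSO level. Between the routes to thymidylate, TK1 to TYMS was 0.417, 0.412 and 0.367 in PTC-028 and 0.463, 0.494 and 0.478 in DMSO. The ratio was lower in every PTC-028 library, a log2 difference of -0.27 with an SE of 0.07 (n = 3 each; exact p = 0.1). Set against DCK, another salvage kinase, TK1 stood at 5.87 ± 0.0852 times in PTC-028 and 7.35 ± 0.431 times in DMSO (SD, n = 3 each; exact p = 0.1).

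**Figure D3:**
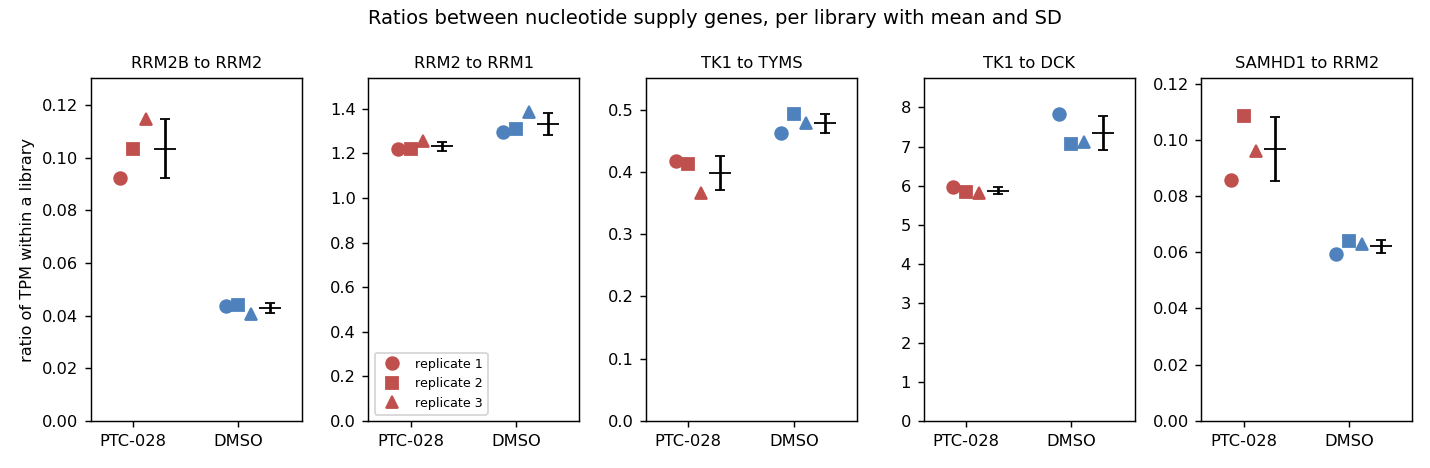
Ratio of TPM between pairs of genes within each library (vertical axes from 0), for PTC-028 (red) and DMSO (blue), with mean and SD in black. RRM2B to RRM2 has the largest log2 difference of the 5, with 0.0921 to 0.115 in PTC-028 against 0.0407 to 0.0442 in DMSO.

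The order of the levels changed in places. In PTC-028 it ran DUT (317 TPM on average), TYMS (273), RRM2 (149), RRM1 (121), DTYMK (116), TK1 (109), DCK (18.5), RRM2B (15.3) and SAMHD1 (14.3). In DMSO it ran DUT (408), TYMS (369), RRM2 (221), TK1 (177), RRM1 (167), DTYMK (138), DCK (24.1), SAMHD1 (13.7) and RRM2B (9.5). TK1 ranked 6 in PTC-028 and 4 in DMSO. In PTC-028 the ranges of neighbours overlapped for RRM1 and DTYMK, DTYMK and TK1, DCK and RRM2B, and RRM2B and SAMHD1. In DMSO they overlapped for TK1 and RRM1 and for RRM1 and DTYMK. RRM2B and SAMHD1 had separate ranges in DMSO, with RRM2B below, and overlapping ranges in PTC-028.

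Other genes with the most similar profiles were found by the Euclidean distance between mean-centred log2(TPM + 1) values over the 6 libraries, as a description. This distance includes the difference between the groups. The direction of the genes found thus follows from the choice, and their calls add no support. Nearest to TK1 were CDC45 (distance 0.139), a part of the replicative helicase, the flap endonuclease gene FEN1 (0.163), FBXO5 (0.163), an inhibitor of the anaphase-promoting complex, the recombination factor gene PSMC3IP (0.173) and DSCC1 (0.175), a part of an alternative clamp loader. Each of these 5 passed as lower, with log2 fold changes from -0.75 to -0.64. Nearest to RRM2 were the histone chaperone gene ASF1B (0.183), EFHD1 (0.19), GABRQ (0.207), the polymerase delta subunit gene POLD3 (0.218) and DTL (0.221), a substrate receptor for the destruction of S-phase proteins. EFHD1, at 0.915 to 2.36 TPM, and GABRQ, at 0.75 to 1.71 TPM over the libraries, lay near the filter of 1 TPM. ASF1B and DTL passed as lower (-0.56 and -0.66, limma adjusted p = 0.0145 and 0.025), and EFHD1, GABRQ and POLD3 did not (0.161, 0.24 and 0.0546). Leaving out DMSO replicate 1, or PTC-028 replicate 1 or 2, ended both calls (up to 0.0877), as did leaving out PTC-028 replicate 3 for DTL (0.0572), and POLD3 passed without DMSO replicate 3 (0.0202), with median ratio scaling (0.0413) and with quantile normalisation (0.0315). RRM1, at 0.159, was closer to RRM2 than any of these. Nearest to RRM2B were NAV1 (0.189), BX664615.1 (0.193), SLC4A5 (0.196), MDM2 (0.21) and ETNK1 (0.229). Of these only MDM2 passed.

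Wider nucleotide metabolism. Across 7 lists of further genes of nucleotide supply and breakdown, 84 genes were tested, of which 5 fell and none rose. That is 5.95% called, against 1.88% of all genes tested in either direction, and their median log2 fold change was -0.06. In the folate list, which feeds the methyl donor to TYMS, SHMT1 fell. SHMT1, which makes the methylene-tetrahydrofolate that TYMS uses, averaged 22.7 ± 1.27 TPM in PTC-028 and 30.6 ± 1.02 TPM in DMSO (SD, n = 3 each; limma adjusted p = 0.0339). Among the single-library removals, SHMT1 kept its call only without DMSO replicate 3 (adjusted p otherwise up to 0.15).

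In the breakdown list 2 of 18 fell and in the transporter list 1 of 4, beside 1.01% of all genes tested. DCTPP1, a pyrophosphatase that clears dCTP and its modified forms, averaged 109 ± 3.18 TPM in PTC-028 and 147 ± 9.93 TPM in DMSO, and NT5C3A, a pyrimidine nucleotidase, averaged 25.4 ± 3.8 TPM in PTC-028 and 39.9 ± 2.21 TPM in DMSO (SD, n = 3 each; limma adjusted p = 0.0149 and 0.0292). NT5C3A had the largest fall of these lists, -0.64 on the log2 scale. Of 4 nucleoside transporters tested 1 fell, the equilibrative transporter gene SLC29A1, with 68.5, 58.8 and 63.7 TPM in PTC-028 and 88.2, 83.8 and 85.3 TPM in DMSO (limma adjusted p = 0.0244). Adjusted p rose above 0.05 without DMSO replicate 1 for all of DCTPP1, NT5C3A and SLC29A1 (0.0781, 0.127 and 0.11). Single PTC-028 removals also ended calls, any of the 3 for DCTPP1 (up to 0.0802), replicate 1 or 3 for NT5C3A (up to 0.109) and replicate 2 or 3 for SLC29A1 (up to 0.0905), as did DMSO replicate 2 for NT5C3A (0.0646).

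No gene passed in the other 4 lists, where limma gave an unadjusted p under 0.05 for 2 of 10 genes of pyrimidine synthesis, 4 of 16 of purine synthesis, 1 of 6 nucleoside diphosphate kinases and 2 of 12 of salvage and mitochondrial supply. Over all genes tested that share was 17.3%, so these counts lie near the background. The smallest p in each belonged to CTPS1 and UMPS (-0.31 and -0.28; limma adjusted p = 0.0609 and 0.0701), PRPS2 and GMPS (-0.34 for each; 0.106 and 0.122), NME4 and NME6 (-0.14 and -0.18; 0.222 and 0.307), and HPRT1 and PNP (-0.25 and -0.24; 0.0889 and 0.0902). CTPS1, which makes CTP, passed with a minimum of 5 TPM (0.043), with median ratio scaling (0.0363) and after correction for GC content and transcript length (0.0245). GMPS passed without DMSO replicate 3 (0.0476). Among 7 tested genes listed as regulators of ribonucleotide reductase or TK1 protein, 1 rose, beside 0.867% of all genes tested. It was CDC20, whose product activates the APC/C ubiquitin ligase. CDC20 had 83.6, 90.6 and 82.6 TPM in PTC-028 and 69.5, 69.6 and 69.9 TPM in DMSO (log2 fold change 0.29, limma adjusted p = 0.0471). CDC20 lost its call without any 1 library (adjusted p up to 0.175). CCNF, the cyclin that marks RRM2 for destruction, was at -0.05 (limma adjusted p = 0.726), and FZR1 of the same list at 0.04 (0.847). Turnover of the RRM2 and TK1 proteins was not tested.

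**Figure D4:**
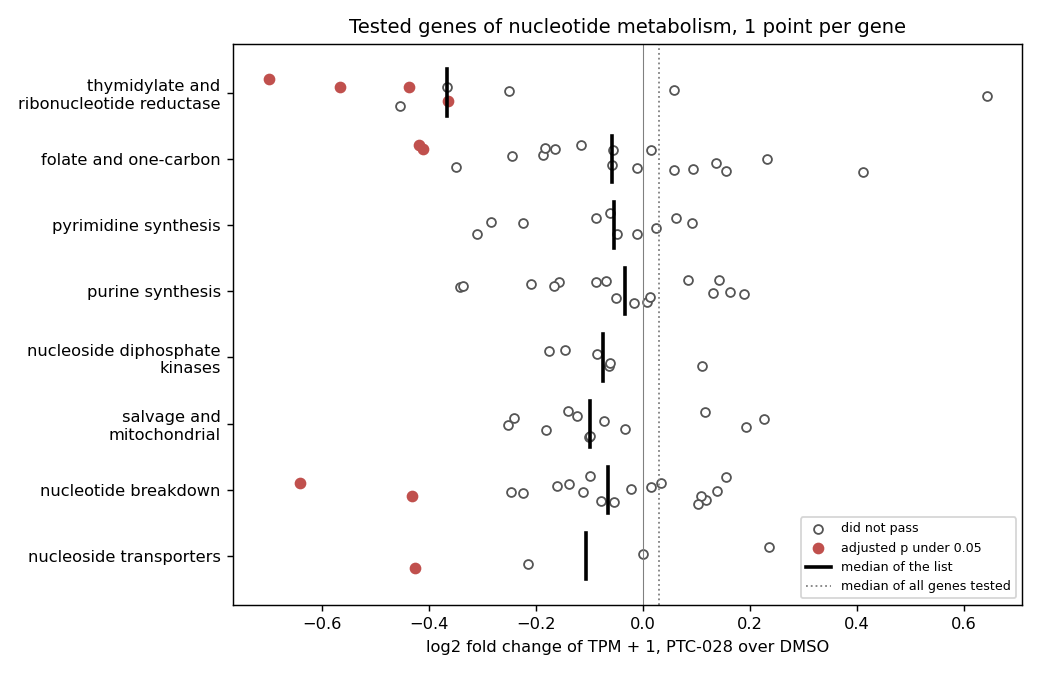
Log2 fold change of TPM + 1, PTC-028 over DMSO, of each tested gene in the 9-gene set (top) and in the 7 further lists, with red points for genes at an adjusted p under 0.05, a black bar at the median of each list and a dotted line at the median of all genes tested. The 9-gene set has its median at -0.37, and the medians of the 7 lists lie between -0.11 and -0.03.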

How the data were processed

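RNA of IMR-32 cells, poly(A)-selected per the labels' protocols, was sequenced by the study in 3 PTC-028 and 3 DMSO libraries. The authors deposited TPM values per gene, and these were used as deposited. Per the submitters' processing notes, GRCh38 was the build. The aligner, quantifier and annotation stay unnamed, being not given in the sources used here. Depth is unknown, since TPM does not carry it, and no counting interval is given. Of 23555 rows, 22507 matched GENCODE 29 by identifier, which gave names and coordinates, and the others kept the symbol of the deposited table. Where rows shared a name, the one with the highest mean stood for it.

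Genes reaching 1 TPM in 3 or more libraries were kept. The log2(TPM + 1) values were fitted by treatment alone in limma 3.58.1 (R 4.3.3; eBayes with a trend). The 2-sided p-values were adjusted by Benjamini-Hochberg across the 13836 kept genes. Such fold changes understate those of low genes. Errors are SE for log2 fold changes and SD for TPM. The procedure was tested on simulated data. The members, gene lists and tests were chosen with earlier results of these data known. Named genes are the members, 4 p53 targets, up to 4 called genes of each list (otherwise the 2 with the smallest p) and the 5 nearest profiles of TK1, RRM2 and RRM2B. CCNF and FZR1 were named after their values were seen. The rule's result for 1 gene of the folate list is not reported here. Promoters came from RefSeq (GRCh38.p14), with a match for 8 of 9 members.

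Alternatives were pseudocounts of 0.1 and 5, no filter, a minimum of 5 TPM, median ratio scaling, quantile normalisation, eBayes without a trend or robust, the replicate number as a block, rows of 1 symbol summed and each library left out. A correction for GC content and transcript length was added after seeing the data.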

Additional observations from a re-analysis of the deposited data

How the results depend on the processing

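Over all genes, 260 passed. The count was 138 with no filter on low values, 131 with eBayes without a trend, 393 after correction for GC content and transcript length, and 74 to 226 with 1 library left out. The 4 members called lower became 2, TK1 and TYMS, with no filter, after quantile normalisation and with eBayes without a trend, and 2 to 4 with 1 library left out. No member was called higher in any of the 17 alternatives. Of 153 member values under these alternatives, 128 kept direction and side of the threshold, 22 lost a call (all DUT or RRM2), 1 gained one (RRM1 without DMSO replicate 3) and 2 changed sign. Both sign changes were of SAMHD1, at -0.0146 after quantile normalisation and between -0.0401 (without DMSO replicate 3) and 0.151 with 1 library left out. COL1A1, a marker of other cells, turned to -0.00371 under median ratio scaling and -0.0388 after quantile normalisation, and lay between -0.118 and 0.130 with 1 library left out, below 0 without PTC-028 replicate 1 or DMSO replicate 1 or 3. The cause of these changes was not tested.

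Same-numbered PTC-028 and DMSO libraries did not deviate together (correlations of 0.0298, -0.0262 and -0.0975 for numbers 1 to 3), so the numbers were not taken as pairs. With the replicate block, 62 genes passed, 2 of them members (TK1 and TYMS). The block, and likewise eBayes without a trend, ended the calls of GATA3, MDM2, SHMT1, DCTPP1, NT5C3A, SLC29A1, DTL and CDC20. The ratio differences were the same with the block, where an exact sign-flip test cannot go below 0.25. All 5 ratios kept their direction in every alternative run. Depth is unknown, so what it limits for RRM2B, SAMHD1 and DCK, the least abundant members, cannot be stated.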
